A study of Homo sapiens with 10 samples.

Results

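The keratins are the protein-coding genes whose symbol is KRT followed by a number and at most 1 letter, and 55 of the 46427 gene rows in the deposited table met this rule. Of these 55 genes, 28 encode acidic type I keratins, 26 encode basic or neutral type II keratins, and KRT222 encodes a short keratin-like protein that was put in neither type. Keratins are the intermediate filament proteins of epithelial cells, and a filament is built from pairs of 1 type I and 1 type II chain, so that neither type polymerises without the other. Simple epithelia, such as those lining glands and airways, use KRT8 and KRT18 with KRT7, KRT19 or KRT20, stratified epithelia use other pairs in their basal and upper layers, and hair uses a set of its own. Pathologists read keratin pairs to trace where a carcinoma came from.

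RNA was measured in H460 and A549, human lung cancer cell lines that the study describes as lung adenocarcinoma, in 10 poly(A)-selected RNA-seq libraries. Parental H460 cells grown flat on plastic (2D) gave 3 libraries. H460 cells that survived 3 days of drug and 3 days of fresh medium before re-plating gave 1 library for 4 μM cisplatin (CR), 2 for 5 nM paclitaxel (PR) and 1 for 0.5 μM doxorubicin (DR), and these 4 libraries are called drug-survived. Tumor spheroid (TS) cells, grown in suspension in a serum-free medium with growth factors and passaged 3 times, gave 1 library of H460, while A549 gave 1 library of 2D cells and 1 of TS cells. The drug-survived cells were the attached survivors of a pulse and not clones selected in drug, and the comparison of TS with 2D culture changes the medium together with the loss of attachment. The sources used here do not say whether libraries of 1 group came from separate cultures, so p-values measure only the spread between these libraries, which may be technical. In the drug-survived group, different drugs are taken as samples of drug-survived cells, so its spread also holds differences between drugs.

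Reads assigned to genes numbered 59499787 to 89541774 per library with a median of 71656787. Genes with at least 1 read numbered 21036 to 21603 in the parental libraries, 22720 in CR, 25781 and 26133 in PR, 26745 in DR, 21154 in H460 TS, and 21880 (2D) and 22762 (TS) in the A549 libraries. Of the listed epithelial markers, E-cadherin (CDH1) was at most 0.03 FPKM and EPCAM at most 0.11 FPKM in the 8 H460 libraries. In A549 2D and TS, CDH1 was at 9.29 and 11.9 FPKM and EPCAM at 0.92 and 1.04 FPKM. Other listed markers differed from this pattern. CLDN7 was at 1.24 FPKM in H460 TS against 0.15 and 0.27 FPKM in A549 2D and TS. CLDN4 was at 1.18 FPKM in PR replicate 2 against 0.18 and 4.81 FPKM in A549 2D and TS. ESRP1 and ESRP2 were at most 0.053 FPKM in any library. Alveolar markers summed to 0.56 FPKM or less in every library, with the surfactant gene SFTPB at 0 throughout. The mesenchymal filament gene VIM lay between 519 and 964 FPKM in all 10 libraries.

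Coding sequence shows how 3 type I keratins of simple epithelia are related. The windows of 60 bases, taken from GENCODE 29 transcripts on GRCh38 in the 5′ to 3′ direction of the coding strand, end in the helix termination motif, the conserved end of the rod domain, and carry the last 30 bases in capitals. Each lies within 1 exon. They are shown because KRT18 is the usual partner of KRT8, KRT19 was lower in TS than in 2D culture in H460 and higher in A549, and KRT20 had reads only in A549 TS and, at 5 reads, in DR.
KRT18: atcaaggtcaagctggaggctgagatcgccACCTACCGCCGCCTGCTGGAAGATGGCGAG
KRT19: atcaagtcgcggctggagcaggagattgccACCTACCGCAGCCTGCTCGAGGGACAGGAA
KRT20: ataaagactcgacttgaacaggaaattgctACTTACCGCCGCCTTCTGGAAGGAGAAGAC
The window lies at chr12:52952275-52952334 (plus strand) in KRT18, at chr17:41523782-41523841 (minus) in KRT19 and at chr17:40878150-40878209 (minus) in KRT20. Among the type II hair keratins, reads can be shared between genes. KRT81 and KRT86 were identical at 94.2% of 1454 aligned coding positions, while KRT81 matched KRT83 at 93.4% and KRT85 at 87.4%. Of all 75-base stretches in the annotated transcripts of KRT81, 35.9% also occurred in another gene, and 32.4% in KRT86. The share was 18.9% for KRT18, mostly with KRT8, and 0% for KRT4, KRT10, KRT15, KRT19, KRT20 and KRT80. How the authors' counting split such reads is not given in the sources used here, so the split between KRT81 and KRT86 is uncertain.

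Few keratins were transcribed in either line. Levels are given in FPKM (fragments per kilobase of transcript, scaled to the mapped fragments of the library), which allows genes of different length to be compared. A level of at least 1 FPKM in at least 1 library was reached by 14 of the 55 keratins, and in all 10 libraries by 6, namely KRT7, KRT8, KRT10, KRT18, KRT19 and KRT80. Above 100 FPKM in some library were KRT7, KRT8, KRT18, KRT19 and KRT81, while 11 keratins had no read in any library. By class, 5 of the 6 simple epithelial keratins reached 1 FPKM, 5 of the 22 stratified, 4 of the 17 hair and none of the 9 hair follicle sheath keratins. Another 4 keratins (KRT3, KRT17, KRT34 and KRT222) stayed under 1 FPKM but passed a test in at least 1 comparison. The other 37 keratins reached at most 0.55 FPKM and 74 reads, and 26 of them had a read in some library.

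**Figure D1:**
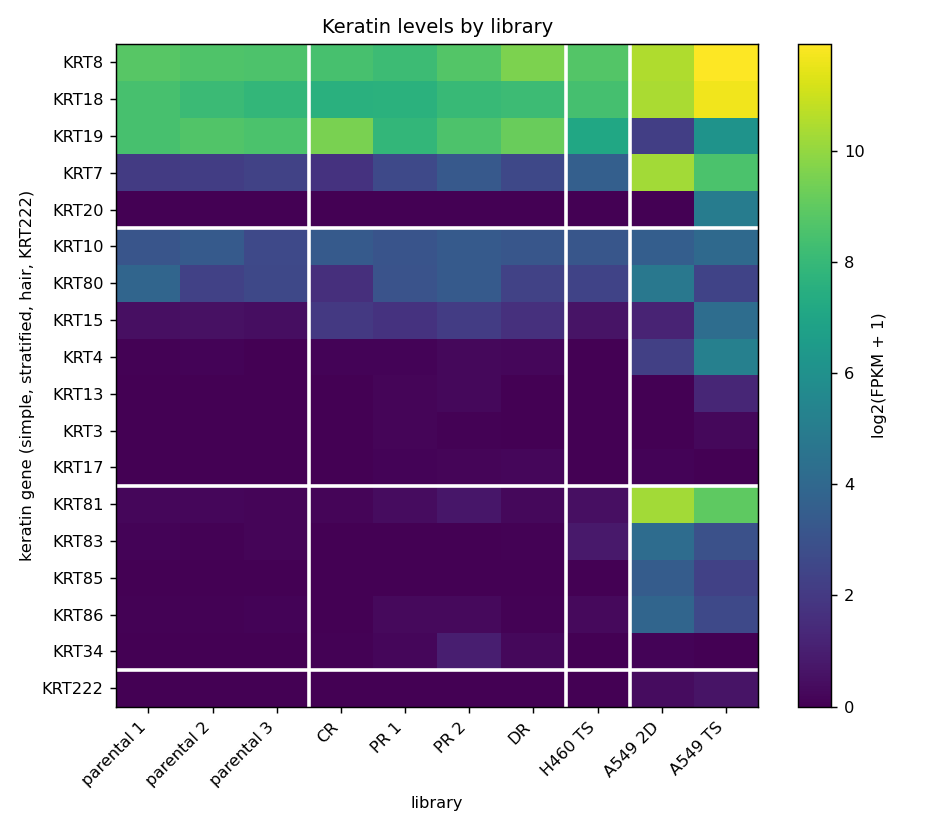
The heat map shows log2(FPKM + 1) of the 18 keratins described by name (rows, in the order simple, stratified, hair and KRT222) in each of the 10 libraries (columns). KRT8 and KRT18 were high in every library, KRT19 was high in H460, and KRT7 and KRT81 passed 100 FPKM in A549 but stayed at or under 11.2 FPKM in H460.

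KRT8, KRT18 and KRT19 had the highest levels in every H460 library, and KRT8 and KRT18 in both A549 libraries. KRT8 and KRT18 are the partners of simple epithelial filaments. KRT8 was at 447, 398 and 380 FPKM in the parental libraries, 343 in CR, 283 and 419 in PR, 751 in DR and 423 in H460 TS. In A549 it reached 1446 FPKM in 2D cells and 3866 FPKM in spheroids. KRT18 was at 349, 280 and 233 FPKM in the parental libraries, 190 in CR, 193 and 265 in PR, 285 in DR and 341 in H460 TS. In A549 it reached 1341 FPKM in 2D cells and 3229 FPKM in spheroids. Both were higher in each A549 library than in any H460 library, and in A549 TS KRT8 had rank 11 and KRT18 rank 15 among all genes by FPKM. KRT19, a type I keratin that lacks most of the tail domain, was at 343, 407 and 372 FPKM in the parental libraries, 738 in CR, 236 and 385 in PR, 588 in DR and 138 in H460 TS. In A549 it was at 3.57 FPKM in 2D and 68.3 FPKM in TS cells, below every H460 library.

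Summed over all members, keratins took 1089 ± 83.3 FPKM (SD, n = 3) in parental cells and 1193 ± 379 FPKM (SD, n = 4) in drug-survived cells, and the 2 ranges overlapped. In A549 the sums were 5341 FPKM in 2D and 8159 FPKM in TS cells, and keratins took 1.07% and 1.56% of all assigned reads there against 0.13% to 0.30% in the 8 H460 libraries. The balance of the types also differed between the lines. Type II keratins summed to 0.63 ± 0.041 times the type I sum in parental cells (SD, n = 3), 0.37 times in CR, 0.67 and 0.66 times in PR, 0.86 times in DR and 0.90 times in H460 TS. In A549 the type II sum was the larger, at 2.94 times type I in 2D and 1.42 times in TS cells. KRT19 alone held 49.0% to 61.0% of the type I sum in parental cells, 78.5% in CR, 28.3% in H460 TS and 0.26% in A549 2D.

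**Figure D2:**
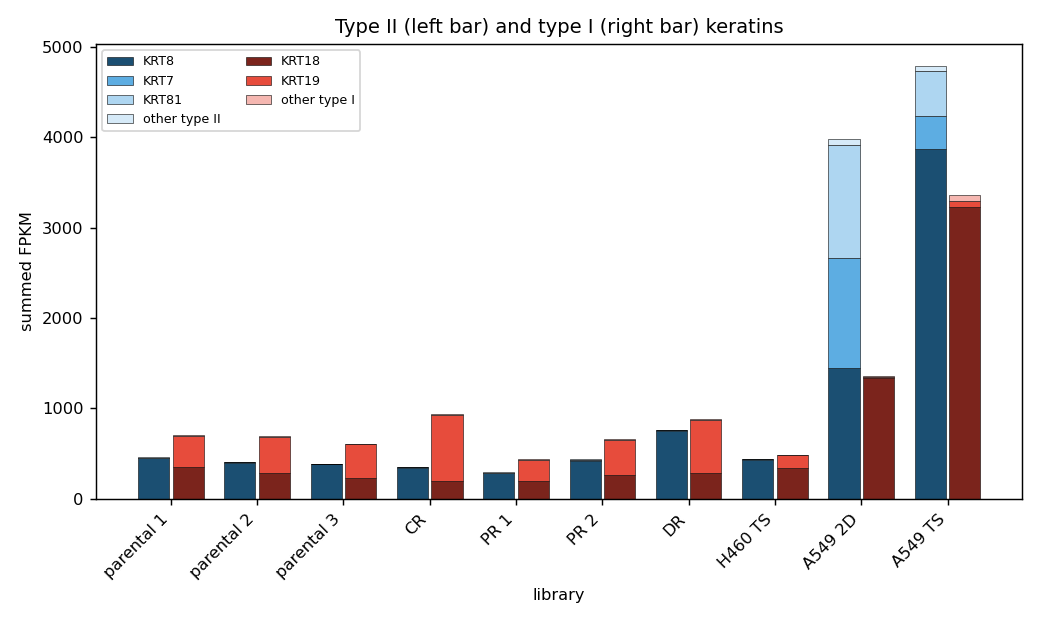
Bars show summed FPKM of type II keratins (left bar of each pair, blue) and type I keratins (right bar, red) in each library, split into the leading members. Type I exceeded type II in all 8 H460 libraries, and type II exceeded type I in both A549 libraries, where KRT7 and KRT81 made up most of the type II excess in 2D cells.

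In drug-survived cells a few keratins of low level were higher, and the abundant ones did not pass the test. The question was which genes differed between the 4 drug-survived and the 3 parental libraries, and edgeR's quasi-likelihood test on counts called 33.8% of the 18398 genes tested at an adjusted p under 0.05 (3397 up and 2823 down, which upper-quartile scaling moved to 4210 and 2032). Of the 55 keratins, 12 passed the filter on low counts, and 3 of these were called, all higher, against 18.5% of all tested genes called higher. The median log2 fold change of the 12 was 0.65, against 0.06 for all tested genes, and passing the filter can itself depend on the group in which a gene is high. These 3 keratins were KRT15, KRT34 and KRT17. With at most 2 reads in a parental library, KRT34 and KRT17 passed the filter only through the drug-survived libraries, where they were high.

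KRT15, a type I keratin of basal cells in stratified epithelia and hair follicles, was at 0.39, 0.45 and 0.34 FPKM in parental cells (64, 66 and 63 reads). In drug-survived cells it was at 2.92 FPKM in CR, 2.35 and 3.36 in PR and 2.17 in DR (600, 495, 538 and 507 reads). Every drug-survived library stood above every parental one, and the levels after the 3 drugs lay close together. The log2 fold change was 2.91 with a standard error of 0.27 (edgeR, adjusted p = 0.00018). KRT15 was called in each of the 14 alternative fits, the replicate block included, with an adjusted p of at most 0.0033. Within the libraries that share a form of name in the labels, the log2 difference was 2.26 for 1 PR against 2 parental libraries and 2.32 for CR, PR and DR against 1 parental library.

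KRT34, a type I hair keratin, had 2, 0 and 0 reads in parental cells, 9 in CR, 27 and 113 in PR and 37 in DR, which is at most 0.99 FPKM. All 4 drug-survived libraries lay above the parental ones, with PR replicate 2 far above the others, and the edgeR log2 fold change was 5.84 (SE 1.28, adjusted p = 0.0066). KRT17, a type I keratin induced in injured and proliferating epidermis, had no read in the parental libraries or CR, 11 and 12 reads in PR and 26 in DR, and was called at an adjusted p of 0.029 by edgeR. Set against a floor of 3 reads over the parental group, its reads scaled to library size were at least 10.7-fold higher, and the groups overlapped because CR was at 0. Without PR replicate 1, PR replicate 2 or DR, KRT34 and KRT17 fell under the filter on low counts and were not tested. KRT34 was called in the 10 other fits that tested it, with an adjusted p of at most 0.037. Without any 1 parental library KRT17 kept a fitted log2 fold change of 6.52 to 6.55, a size that depends on the prior count since the parental libraries were at 0, with an edgeR adjusted p of 0.073 to 0.085 (0.082 with the form of the library name as a covariate). These low reads came in libraries in which more genes had at least 1 read, 22720 to 26745 against 21036 to 21603, and the part of this in the result was not tested.

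The other 9 tested keratins were not called. KRT8 had a log2 fold change of 0.04 (SE 0.32, edgeR adjusted p = 0.94), KRT18 of -0.41 (SE 0.22, adjusted p = 0.18) and KRT19 of 0.30 (SE 0.37, adjusted p = 0.55). The SD over the drug-survived libraries, which holds differences between drugs, was wide. It was 209 FPKM for KRT8 and 221 FPKM for KRT19, against 34.8 and 32.2 FPKM over the parental ones. KRT7 was at 3.25, 3.42 and 4.03 FPKM in parental cells, 2.37 in CR, 5.28 and 9.10 in PR and 5.09 in DR (log2 fold change 0.46, edgeR adjusted p = 0.32). KRT4, a type II keratin of mucosa, had 9, 11 and 6 reads in parental cells and 15, 14, 28 and 33 in CR, PR and DR, so the groups did not overlap, but the edgeR adjusted p was 0.12. KRT10, a type I keratin of the upper epidermis, was at 5.29 to 9.39 FPKM in parental and 7.44 to 9.37 FPKM in drug-survived cells. KRT80, a type II keratin of many epithelia, was at 13.6, 4.0 and 5.08 FPKM in parental cells and 2.08 to 9.34 FPKM in drug-survived cells. Parental replicate 1 was thus the highest of these 7 libraries for KRT80, and the edgeR adjusted p was 0.39. KRT83, a type II hair keratin below the filter here, had 13, 8 and 23 reads in parental cells and 0, 0, 2 and 9 in CR, PR and DR. It was the only one of the 18 named keratins whose drug-survived levels all lay below the parental ones, whereas KRT4, KRT15 and KRT34 lay above. How many of all genes were separated in this way was not counted.

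**Figure D3:**
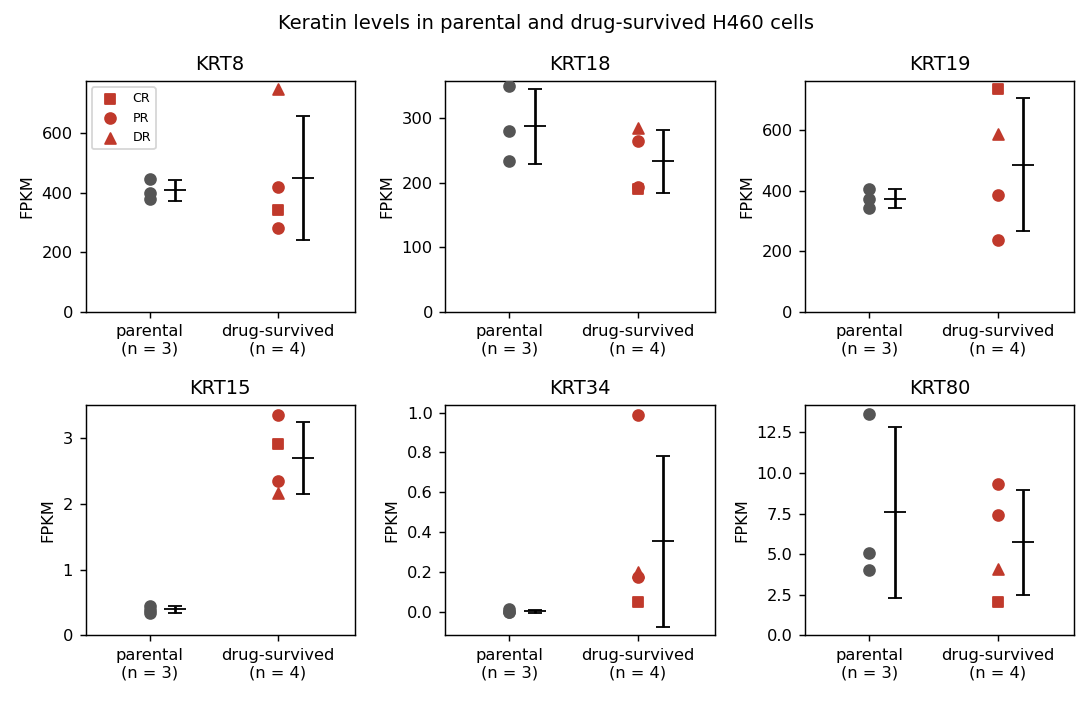
Points are FPKM of 6 keratins in the 3 parental libraries (grey) and the 4 drug-survived libraries (red, with squares for CR, circles for PR and triangles for DR), and the bars beside them are the mean and SD. KRT15 separated the groups (0.34 to 0.45 against 2.17 to 3.36 FPKM), KRT34 did so at under 1 FPKM, and KRT8, KRT18, KRT19 and KRT80 overlapped.

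The 2 paclitaxel libraries allowed a test of 1 drug. In this fit edgeR called 28.1% of 19430 genes, 3391 up and 2064 down, which upper-quartile scaling moved to 4252 and 1347. Of 15 keratins tested, 7 were called, against 17.5% of all tested genes called higher and 10.6% lower. KRT3, KRT13 and KRT17 had no parental read, and KRT34 had at most 2 in a parental library. All of these passed the filter only through PR, the group in which they were high, so the filter partly fixes this count. Those higher were KRT15 (log2 fold change 2.91, adjusted p = 0.0015), KRT3, KRT13, KRT17, KRT34 and KRT86, and the one lower was KRT83 (-3.78, SE 1.08, edgeR adjusted p = 0.030). KRT83 had 13, 8 and 23 reads in parental cells and 0 and 2 in PR. It passed the filter only through the parental libraries, where it was high. KRT13, a type I keratin of the upper layers of mucosa, had no read in parental cells and 20 and 24 in PR, at least 20.4-fold higher in reads scaled to library size than the floor of 3 reads over the parental group. KRT3, a type II keratin of the cornea, had no parental read and 29 and 9 in PR, at least 17.6-fold higher by the same floor. The type II hair keratin KRT86 was at 0.060, 0.052 and 0.078 FPKM in parental cells and 0.22 and 0.24 FPKM in PR (log2 fold change 1.55, SE 0.43, edgeR adjusted p = 0.027). KRT81, which shares reads with KRT86, stood at 0.17, 0.15 and 0.11 FPKM in parental cells and 0.31 and 0.68 FPKM in PR and missed the threshold (edgeR adjusted p = 0.053). With 1 PR library left out the count fell to 3 (without replicate 1) or 1 (without replicate 2, KRT15), and limma on log2(FPKM + 1) called 2.

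For cisplatin and doxorubicin, with 1 library each, levels are given without a test, and a change of more than 2-fold in FPKM + 1, the size of the cut-off in the study's methods, was counted. In CR, of 7 keratins at 1 FPKM or more, KRT15 was past 2-fold higher and KRT80 past 2-fold lower, where 12.9% of all genes at that level were past 2-fold. The value of KRT80 rests on parental replicate 1 (13.6 FPKM), and without it KRT80 was 1.79-fold lower in FPKM + 1 and not past 2-fold. KRT19 in CR was 1.97-fold the parental mean, just inside that limit, and without parental replicate 2 it was past 2-fold at 2.06-fold in FPKM + 1. In DR, 1 of 7 was past 2-fold, again KRT15, where 11.4% of all genes were, and KRT8 was 1.84-fold the parental mean. The 2 PR libraries together had 1 of 7 past 2-fold, KRT15, where 13.2% of all genes were. KRT15 was under 1 FPKM in every parental library and entered these counts only through the drug-survived libraries, where it was high. CR and DR thus lay on opposite sides of the parental range for KRT8 (343 and 751 FPKM against 380 to 447), and the ratio of KRT8 to KRT18 was 1.8 in CR and 2.63 in DR, against 1.28 to 1.63 in parental cells.

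The genes that work with keratins were counted over lists of known genes, to be read against the 18.5% of all tested genes called higher and the 15.3% called lower in drug-survived cells. Of 15 genes for keratin linkers and anchors, 14 were tested in drug-survived cells, 5 were called higher and 1 lower, with a median log2 fold change of 0.19 against 0.06 for all genes. Of those called higher, COL17A1 was at 0 FPKM in every parental library. EPPK1 and DSP were at most 0.0096 and 0.025 FPKM there, and these genes are named after their values were seen. COL17A1 passed the filter only through the drug-survived libraries, where it was high, so the filter partly fixes this count. PLEC, the plectin that ties filaments to other structures, rose from 17.6, 5.75 and 23.4 FPKM in parental cells to 31.0 in CR, 47.3 and 45.8 in PR and 36.5 in DR (edgeR adjusted p = 0.042). FAM83H, which organises keratin filaments, rose from 1.74 ± 0.64 FPKM (SD, n = 3) to 4.25 ± 0.29 FPKM (SD, n = 4), and TCHP, a keratin-binding protein, fell from 14.3 ± 2.22 to 8.53 ± 0.48 FPKM, both called by edgeR with adjusted p values of 0.0098 and 0.0043. Of 12 other cytoplasmic intermediate filament genes, 9 were tested, 3 were called higher (SYNM, BFSP1 and NEFL) and NES was called lower. The neurofilament gene NEFL stood at 33.4, 30.02 and 26.1 FPKM in parental cells and 57.1 to 82.8 FPKM in drug-survived cells, with no overlap.

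Of 23 transcription factors known for epithelial or keratin genes, 18 were tested, 6 were called higher (ELF3, EHF, GRHL3, HOXC13, MSX2 and TFAP2A) and 1 lower, against 18.5% and 15.3% of all tested genes. HOXC13, a regulator of hair keratin genes, stood at 3.81, 1.91 and 1.90 FPKM in parental cells and at 6.68 in CR, 10.2 and 13.7 in PR and 7.93 in DR (log2 fold change 1.78, SE 0.31, edgeR adjusted p = 0.0021). GRHL3, a factor of epidermal barrier formation, stood at 0.29, 0.75 and 1.47 FPKM in parental and 2.83 to 5.88 FPKM in drug-survived cells. Of 17 cornified envelope and keratin-bundling genes present, 7 were tested and 2 were called higher, among them TCHH, the trichohyalin of the hair root sheath, at 0.13 to 0.17 FPKM in parental and 0.49 to 1.27 FPKM in drug-survived cells. The other, FLG (named after its values were seen), was at 0 FPKM in every parental library. It passed the filter only through the drug-survived libraries. Of 93 protein-coding keratin-associated protein genes, whose products embed hair keratins, KRTAP4-1 alone was tested and was called higher (edgeR adjusted p = 0.039), and the list summed to 0.026 to 0.12 FPKM in parental and 0.49 to 0.78 FPKM in drug-survived cells.

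Of 6 listed basal cell markers, 3 were tested (KRT15 itself, S100A2 and NGFR), all called higher in drug-survived cells, where 18.5% of all tested genes were called higher, and the sum of the list was 2.03 to 3.24 FPKM in parental and 8.56 to 21.6 FPKM in drug-survived cells. S100A2 was at 1.66 to 2.79 FPKM in parental and 6.22 to 17.9 FPKM in drug-survived cells (edgeR adjusted p = 0.0021). The defining basal keratins KRT5 and KRT14 had 0 reads in every parental and drug-survived library, and TP63 was at most 0.05 FPKM. Epithelial markers summed to 0.30 to 0.68 FPKM in parental and 0.18 to 1.49 FPKM in drug-survived cells with 0 of 4 tested called by edgeR (2 at an unadjusted p under 0.05). Among lists of other cell types, to be read against the same 18.5%, 3 of 5 tested fibroblast markers were called higher (summed FPKM 1.29 to 6.00 in parental and 6.08 to 19.6 in drug-survived cells, with COL1A2 at or under 0.04), and 2 of 3 tested immune markers of 6 listed (15.1 to 16.9 and 31.1 to 58.0, nearly all of it CD68, with PTPRC at or under 0.16). Of those called, PDGFRA and ITGAM (named after their values were seen) were at 0 FPKM in every parental library. Both passed the filter only through the drug-survived libraries. The 1 endothelial marker tested of 5 and the 1 alveolar marker tested of 7 were also called higher, in lists that summed to at most 0.15 and 0.56 FPKM in H460 2D libraries. The part of these in the keratin results was not tested.

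Spheroid culture was compared with 2D culture over both lines in 1 fit. Of 13 keratins tested, 0 were called by edgeR, where 0.191% of all 18372 tested genes were, and KRT15 alone had an unadjusted p under 0.05 (log2 fold change 2.19, SE 0.86, edgeR adjusted p = 0.61). DESeq2 and limma also called 0, with 3 and 2 keratins at an unadjusted p under 0.05. The fit averages lines that moved apart, and without the H460 TS library it called 4 keratins higher, namely KRT4, KRT15, KRT19 and KRT20, while without either A549 library it called KRT83. Such a fit compares 1 TS library with the 2D cells of its line and takes its spread from the parental H460 libraries alone, and KRT20 passed the filter only through A549 TS, where it is high. Each line had 1 TS library, so the values of each line are given as levels.

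In H460, 2 of the 6 keratins at 1 FPKM or more were past 2-fold, where 3.89% of all genes at that level were. KRT7 was at 11.2 FPKM in TS cells against 3.25 to 4.03 in parental cells, and KRT19 at 138 against 343 to 407 FPKM. KRT8 and KRT18 stayed inside or next to the parental range, at 1.04-fold and 1.19-fold the parental mean. The hair keratin KRT83 had 103 reads in H460 TS against 8 to 23 in parental cells, and stayed at 0.76 FPKM.

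In A549, 13 of the 14 keratins at 1 FPKM or more were past 2-fold, 7 higher and 6 lower, where 9.73% of all genes at that level were past 2-fold and 6.7% were past 2-fold higher. KRT13 and KRT20 had no read in A549 2D and entered this count only through A549 TS, where they were high. Higher in TS cells were simple and stratified keratins, and lower were KRT7, KRT80 and the 4 type II hair keratins. KRT20, the type I keratin of intestinal epithelium, had no read in A549 2D and 4601 reads (31.4 FPKM) in A549 TS, at least 1450-fold higher in reads scaled to library size by the floor of 3 reads in the 2D library. In the other 9 libraries it had 5 reads in all, each of them in DR. KRT4, which pairs with KRT13 in mucosa, went from 3.82 to 35.1 FPKM, and KRT13 from 0 to 203 reads (1.45 FPKM). KRT15 went from 1.29 to 17.99 FPKM and KRT19 from 3.57 to 68.3 FPKM, a ratio of 19.1. KRT8 and KRT18 went up by less, 2.67-fold and 2.41-fold. In the opposite direction, KRT7 went from 1221 to 372 FPKM, KRT81 from 1246 to 499, and KRT80 from 25.9 to 4.26 FPKM.

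**Figure D4:**
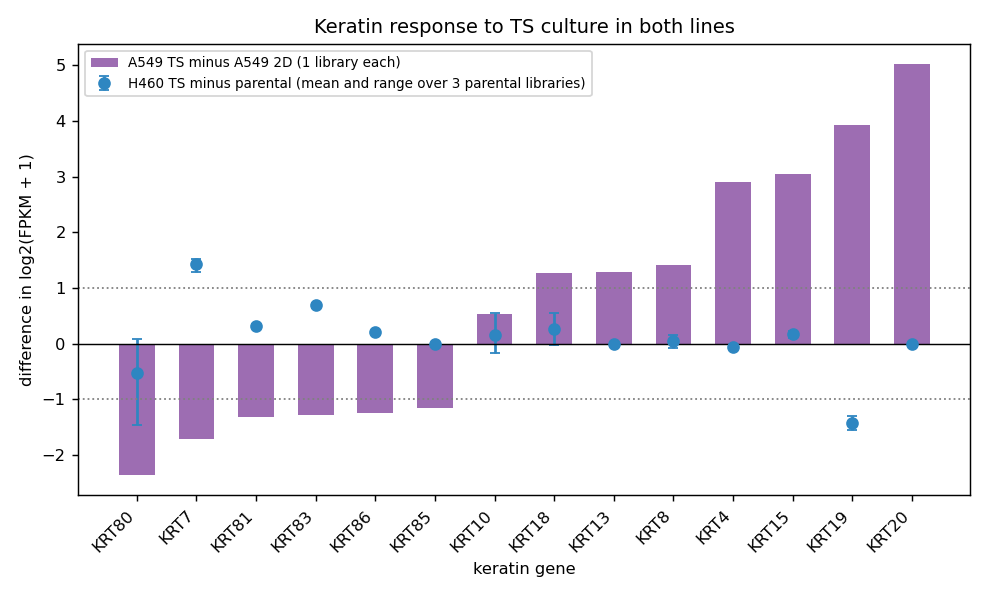
For the 14 keratins that reached 1 FPKM in an A549 library, bars show the difference in log2(FPKM + 1) between A549 TS and A549 2D (1 library each), and points show H460 TS minus parental (mean and range over the 3 parental libraries), with dotted lines at 2-fold. KRT7 and KRT19 moved in opposite directions in the 2 lines (1.42 and -1.43 in H460, -1.71 and 3.92 in A549).

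The difference between the lines in the TS response was tested as an interaction. H460 TS, A549 2D and A549 TS had 1 library each, so all of the spread came from the 3 parental H460 libraries, and the single libraries are assumed to vary like these. edgeR called 2 of 19 tested keratins, KRT19 and KRT4, where 0.436% of all 19941 tested genes were called. For KRT19 the A549 response exceeded the H460 response by 5.73 on the log2 scale (SE 0.61, adjusted p = 0.015), since it went down in H460 and up in A549. For KRT4 the fitted difference was 9.33 (SE 1.40, edgeR adjusted p = 0.038), but H460 TS had no KRT4 read and parental cells 6 to 11, so its size depends on the fit's prior count. KRT7 (-3.32, SE 0.58), KRT15 (3.57, SE 0.66), KRT83 (-4.36, SE 0.82), KRT86 and KRT81 had edgeR adjusted p values of 0.062 to 0.11 and were not called. KRT8 (1.40, SE 0.55, adjusted p = 0.52) and KRT18 (1.05, SE 0.58, adjusted p = 0.78) were not called by edgeR either. The count was 8 with DESeq2, 0 with no filter on low counts, 7 without parental replicate 1 and 5 without parental replicate 3. On log2(FPKM + 1), limma called KRT4 and KRT15 and did not call KRT19.

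Some markers of other airway cells were higher in A549 TS than in A549 2D beside these keratins, and others were not. The airway secretory and ciliated list summed to 75.9 FPKM in A549 TS and 2.64 in A549 2D, with TPPP3 at 47.6 and BPIFB1 at 26.2 FPKM in TS cells (genes of these marker lists named after their values were seen), while SCGB1A1 and SCGB3A2 were at or under 0.11 FPKM. Of the same list, FOXJ1 was at 1.10 FPKM in TS and 0.35 in 2D cells, and CCDC78 at 0.90 and 1.42 FPKM. The basal list summed to 22.2 FPKM in A549 TS, of which KRT15 was 17.99, with TP63 at 2.12 FPKM, against 4.46 FPKM in 2D. The defining basal keratins KRT5 and KRT14 were at 0.053 and 0.040 FPKM in A549 TS and at 0.018 and 0 FPKM in A549 2D. In 2D cells KRT15 was at 1.29 FPKM and TP63 at 0.14 FPKM. The basal marker S100A2 was lower in TS cells, at 1.91 against 2.89 FPKM, and NGFR was at 0.12 FPKM in both. LYZ was at 37.7 FPKM in A549 TS and 0 in 2D, with the leukocyte marker PTPRC at 0.0046 FPKM in TS and 0 in 2D. The part of these in the keratin levels was not tested. In bulk RNA, more cells of a kind and more RNA per cell cannot be told apart.

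Between the lines, most of the tested keratins differed. The comparison of A549 with H460 over both cultures rests on 2 A549 libraries, 1 per culture. Of 13 keratins tested, 10 were called by edgeR, all higher in A549, where 23.9% of all tested genes were called and 14.4% were called higher. KRT85 and KRT222 had no read in the parental and TS libraries of H460, and KRT4 had 9, 11 and 6 reads in the parental libraries and 0 in H460 TS. These genes passed the filter only through A549, where they were high, so the filter partly fixes this count. With no filter on low counts, 11 of 32 keratins were called higher, where 2286 of 27597 genes were. The 10 had KRT8 (log2 fold change 2.39, SE 0.36, adjusted p = 0.0048) and KRT18 (2.65, SE 0.32, adjusted p = 0.0021) at one end and the hair keratins KRT81 and KRT85 at the other. KRT15 (3.13, SE 0.83, edgeR adjusted p = 0.036) was not called with no filter on low counts, without any 1 parental library or without A549 TS. Of the 18 named keratins, 11 were higher in both A549 libraries than in the parental and TS libraries of H460, and KRT19 was lower. The share of all genes separated in this way was not counted, so the number only describes these genes. KRT19 had a log2 fold change of -4.10 (SE 1.63, edgeR adjusted p = 0.11), and was called by DESeq2 (adjusted p = 0.0057), by limma on log2(FPKM + 1) (adjusted p = 0.014) and by edgeR without H460 TS or A549 TS.

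Several of the keratins that were higher in A549 lie next to each other in the genome. All 55 members lie in 2 clusters on GRCh38, 27 on chromosome 12 from 52168996 to 52952901 and 28 on chromosome 17 from 40654665 to 41624842. KRT80, KRT7, KRT86, KRT81, KRT83 and KRT85 are 6 consecutive members at one end of the chromosome 12 cluster, between 52168996 and 52367481. Of these, KRT80 was not called between the lines (edgeR adjusted p = 0.19), and its levels overlapped. KRT7, the simple epithelial type II keratin of lung and bile duct, was at 1221 and 372 FPKM in A549 2D and TS against 2.37 to 11.2 FPKM in the H460 libraries (log2 fold change 7.11, SE 0.71, edgeR adjusted p = 0.0012).

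KRT81, a type II keratin of the hair cortex, was at 1246 FPKM in A549 2D and 499 FPKM in A549 TS, against 0.11 to 0.68 FPKM in the 8 H460 libraries (log2 fold change 12.02, SE 0.70, edgeR adjusted p = 0.00016). In A549 2D it had rank 38 among all genes by FPKM, next to KRT8 (rank 30), KRT18 (rank 35) and KRT7 (rank 40). KRT86 was at 13.8 and 5.20 FPKM, KRT83 at 17.6 and 6.68 FPKM and KRT85 at 9.99 and 3.94 FPKM in A549 2D and TS. KRT85 had no read in the parental and TS libraries of H460 and 1837 and 783 in A549, at least 1652-fold higher in reads scaled to library size by the floor of 3 reads over those 4 H460 libraries. Together the 17 hair keratins summed to 1287 and 515 FPKM in A549, against 0.21 to 2.15 FPKM in H460. Beyond KRT85, the next members along the chromosome, KRT84, KRT82, KRT75, KRT6B, KRT6C, KRT6A and KRT5, had at most 10 reads in any library.

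Annotation overlaps touch these values. KRT81 lies wholly inside the span of KRT86 on the opposite strand, over 5622 bases, KRT7 and KRT86 overlap by 2887 bases on the same strand, and KRT8 and KRT18 overlap by 1084 bases on opposite strands. The labels do not say that the kit marks strand, and without strand the reads of such overlaps cannot be told apart. KRT81 had 26.8 and 28.5 times the reads of KRT86 in A549 2D and TS, and 0.42 to 1.58 times in H460, where KRT86 had at most 121 reads. The pseudogene KRT87P, whose span overlaps KRT7 and KRT86, had 18705 and 7659 reads in A549 2D and TS and at most 5 in any H460 library. Another pseudogene, KRT8P3, which shares 3.59% of the 75-base stretches of KRT8, had 1136 reads in DR and 1778 in A549 TS against 350 to 765 in the other libraries, and those 2 libraries also had the highest KRT8 of their line.

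**Figure D5:**
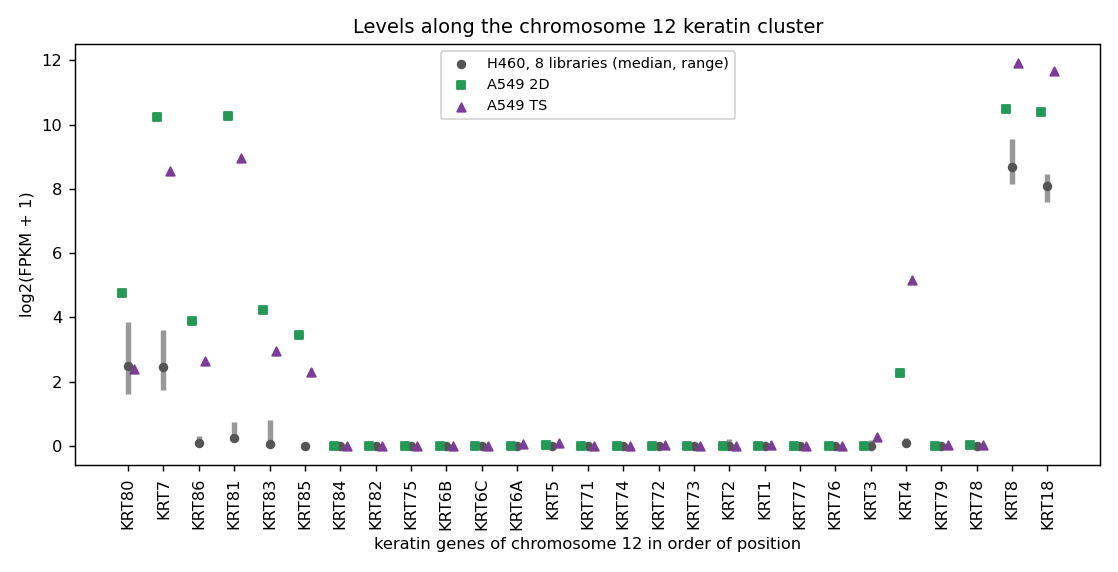
Levels of the 27 chromosome 12 keratins in order of position (equal spacing) are shown as log2(FPKM + 1), with grey points and lines for the median and range of 8 H460 libraries, green squares for A549 2D and purple triangles for A549 TS. Transcription stood at both ends of the cluster, from KRT80 to KRT85 at one end in A549 and at KRT8 and KRT18 at the other end in both lines, with KRT4 in A549. KRT80 and KRT7 were also above 1 FPKM in every H460 library.

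The remaining named keratins were low. KRT222 had no read in H460 and 66 and 118 reads in A549 2D and TS, and 57.1% of the 75-base stretches of its transcripts also occur in an overlapping gene annotated on the same strand. KRT10 was at 10.7 and 15.9 FPKM in A549 against 5.29 to 9.39 FPKM in H460 (log2 fold change 0.69, SE 0.28, edgeR adjusted p = 0.12). KRT80 was at 25.9 FPKM in A549 2D and 4.26 FPKM in A549 TS, against 2.08 to 13.6 FPKM in H460. Set against the parental mean, A549 2D had 9 of 12 keratins past 2-fold higher and KRT19 past 2-fold lower, where 18.9% of all genes at that level were past 2-fold and 11.2% were past 2-fold higher. KRT4, KRT81, KRT83, KRT85 and KRT86 were under 1 FPKM in every parental library. They entered this count only through A549 2D, where they were high.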

How the data were processed

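RNA-seq libraries of H460 and A549 cells were prepared by the authors with a poly(A) kit (Illumina TruSeq) and sequenced on HiSeq instruments. The submitters' processing notes name bcl2fastq 1.8.4, Trimmomatic, HISAT2 2.1.0, StringTie 2.1.3b and GRCh38, and how reads on overlapping or near-identical genes were counted is not given in the sources used here. The deposited table holds, for each gene and library, raw read counts, FPKM and TPM values made by the authors, and the TPM values were not used.

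Counts were tested with edgeR 4.0.16 (TMM scaling, filterByExpr, quasi-likelihood F test, Benjamini-Hochberg adjustment over all tested genes, threshold 0.05) in R 4.3.3. Log2 fold changes come from edgeR, and standard errors are the fold change divided by the root of F. The 5 tests were drug-survived against parental H460, PR against parental, TS against 2D with line as a term, A549 against H460 with culture as a term, and the line by culture interaction. Single libraries were compared on log2(FPKM + 1), a scale that understates changes of low genes, for genes with at least 1 FPKM in a library compared. The floor for a group at 0 is 3 reads over that group, and covers counting error only.

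The alternatives were upper-quartile scaling, DESeq2 1.42.0, limma 3.58.1 on log2(FPKM + 1), no filter, protein-coding genes, each replicate left out, the form of the library name in the labels (written with or without a second hyphen) as a covariate, a pseudocount of 0.1, each parental library alone as control, TMM-scaled FPKM, and a replicate block. Members with at least 1 FPKM in a library or called in a test are named, the rest counted, and list genes are named when called in the drug-survived or TS test at 1 FPKM or more, at most 6 per list. Pseudogenes with at least 100 reads in a library could be named, and features named after their values were seen are said to be so. The members, lists and tests were chosen with earlier results of these data known. Coordinates, coding sequence and shared 75-base stretches come from GENCODE 29. Libraries of a group differed beyond counting noise (chi-square per gene of 89.6 to 369). In simulated data, 4-fold changes were recovered for 75% of changed genes in the drug-survived test, 63% for PR, 57% for TS, 66% for the lines and 0% for the interaction. Some sequences are not reported here.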

Additional observations from a re-analysis of the deposited data

Results flagged for a closer look

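KRT34 in PR replicate 2, at 0.99 FPKM (113 reads), stood apart from the other drug-survived libraries (0.052, 0.17 and 0.20 FPKM), with a gap that is large for 4 libraries. KRT20 at 0.022 FPKM (5 reads) and KRT85 at 0.0082 FPKM (3 reads) in DR stood apart from the other drug-survived libraries, which were at 0. With the other libraries at 0, any read in DR gives such a gap, so the zeros fixed the flags of KRT20 and KRT85. Such gaps were looked for in 17 groups of 4 libraries. Chance gives about 1 in 20 groups for normally distributed values, a rate that does not apply to groups with libraries at 0.

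The response to TS culture differed between the lines for 2 keratins in the edgeR interaction test. With limma KRT19 was not called, and with no filter on low counts neither of them was called. KRT19 differed by 5.73 on the log2 scale, with 138 FPKM in H460 TS against 343 to 407 FPKM in parental cells, and 68.3 FPKM in A549 TS against 3.57 FPKM in A549 2D. KRT4 differed by 9.33, with no read in H460 TS against 6 to 11 in parental cells, and 6103 reads in A549 TS against 616 in A549 2D, so the size depends on the prior count of the fit. Each line had 1 TS library and A549 had 1 library of 2D cells, so the spread in this test came from the 3 parental H460 libraries alone, and the variation of the TS response within a line was not measured.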

How the results depend on the processing

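The call of KRT15 in drug-survived cells was made in every fit run, and that of KRT34 in every fit that tested it. KRT17 lost its call without any 1 parental library, and both KRT17 and KRT34 fell under the filter without PR replicate 1, PR replicate 2 or DR. These 2 keratins had few reads, and A549 has no replicate. Upper-quartile scaling shifted the median over all genes, on the log2 scale, from 0.06 to 0.23 in drug-survived cells and from 0.05 to 0.30 in PR, so that KRT10 and KRT80 in PR, not called, turned to 0.18 and 0.18, and on the scale of limma to 0.17 and 0.29. With protein-coding genes only, KRT10 was at 0.017. Among the alternative values for single keratins, 576 kept direction and side of the threshold, 28 became called, 21 lost the call, 33 turned sign and 5 moved, and no cause was tested.

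The number of keratins called in drug-survived cells was 3, 1 with limma, 5 with no filter and 1 to 3 with a replicate left out. With the form of the library name as a covariate, KRT8, KRT10 and KRT19, not called, turned to -0.19, -0.071 and -0.14. Left-out replicates gave -0.35 to 0.22 for KRT8, -0.12 to 0.22 for KRT10, -0.025 to 0.54 for KRT19 and -0.91 to 0.14 for KRT80. In PR, limma called 3026 genes and 2 keratins, and left-out replicates gave 950 to 6661 genes and 1 to 7 keratins, with KRT10 at -0.23 to 0.081 and KRT80 at -0.42 to 0.65.

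Parental and PR libraries share replicate numbers, but their deviations correlated at only 0.08 over 18398 genes, so the numbers are taken as names. A replicate block on these 4 libraries called 6775 genes, against 6661 without the block, and 6 keratins, with KRT8, KRT10 and KRT19 at -0.48, -0.23 and -0.50.

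For TS against 2D, 35 genes were called, 537 with DESeq2 and 6 to 322 with a replicate left out, with 0 to 4 keratins. KRT4 was at -0.62 with DESeq2, and limma put KRT81, KRT83 and KRT86 at -0.34, -0.10 and -0.38. Left-out replicates gave -6.09 to 3.24 for KRT4, -1.67 to 1.66 for KRT7, -1.42 to 4.30 for KRT19, -1.28 to 1.54 for KRT81, -1.35 to 3.01 for KRT83 and -1.36 to 1.8 for KRT86. Between lines, 4384 genes were called and 2359 to 3905 with a replicate left out. For the interaction, 87 genes were called, 539 with DESeq2 (8 keratins), 27 with limma (KRT4 and KRT15 but not KRT19), 0 with no filter (0 keratins) and 116 to 656 with a replicate left out (3 to 7 keratins). The H460 TS and both A549 libraries cannot be left out of that fit. Past 2-fold, CR had 1 keratin with parental replicate 2 or 3 alone as control, and DR had 2 with parental replicate 1 alone. With 1 parental library left out of the control, an alternative chosen after seeing the data, CR had 1 to 3 keratins, with KRT80 not past 2-fold without replicate 1.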
